A study of Mus musculus with 12 samples.

Results

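The vascular endothelial growth factor (VEGF) system was described in pressure-loaded mouse ventricles through 9 genes, which were the ligand genes Vegfa, Vegfb, Vegfc and Pgf, the receptor tyrosine kinase genes Flt1, Kdr and Flt4, and the neuropilin co-receptor genes Nrp1 and Nrp2. They were picked by gene symbol from the 14957 genes of the deposited count tables. That rule used no measured value, but earlier results of these data were known when the genes were chosen. All 9 were listed, and all 9 passed the filter on low counts that left 13910 genes for testing. RNA came from snap-frozen ventricles of 12 wild-type C57Bl/6J mice, 4 in each of 3 groups, with 1 library per mouse. TAC-BacNav mice had transverse aortic constriction (TAC), an operation in which a narrowed aortic arch raises the pressure load on the left ventricle, and were given AAV9-MHCK7-BacNav-mScarlet. TAC-mScarlet mice had the same operation and were given AAV9-MHCK7-mScarlet. Sham-NT mice were sham operated and injected with PBS. AAV9 is an adeno-associated virus that reaches heart muscle, MHCK7 is a promoter active in heart and skeletal muscle, BacNav is an engineered bacterial voltage-gated sodium channel, and mScarlet is a red fluorescent protein. Sham-NT mice thus received neither constriction nor vector, so those factors cannot be told apart in any comparison with them. The sources used here do not give age, sex or the time since operation or injection.

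The VEGF ligands are secreted dimers that act mainly on endothelial cells. VEGF-A binds the kinases encoded by Flt1 and Kdr, and Kdr carries most of the signal for endothelial growth and permeability. VEGF-B and placental growth factor, the product of Pgf, bind Flt1, while VEGF-C binds Flt4 and, once processed, Kdr, and drives growth of lymphatic vessels. Neuropilins hold VEGFs near these kinases and also bind secreted semaphorins. In the heart, cardiomyocytes are a main source of VEGF-A and VEGF-B, and their receptors sit on the neighbouring capillary endothelium.

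Gene positions in GENCODE vM21 (GRCm38) were chr17:46016993-46032369 for Vegfa, chr19:6982473-6987651 for Vegfb, chr8:54077606-54187096 for Vegfc and chr12:85166635-85177790 for Pgf. The receptor genes lay at chr5:147561604-147726011 for Flt1, chr5:75932827-75978458 for Kdr, chr11:49609263-49652739 for Flt4, chr8:128358604-128503363 for Nrp1 and chr1:62703285-62818695 for Nrp2. Reads were counted per gene, so splice forms such as the soluble form of Flt1 were not separated. The only exon overlap of these genes with another annotated gene was that of Nrp1 with the microRNA gene Mir1903, which shares 80 bases or 0.818% of the Nrp1 exon length.

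The 250 bases before the first RefSeq start (GRCm38.p6) are printed for Vegfb and Vegfc, because their TAC-mScarlet and Sham-NT libraries did not overlap, in opposite directions, and for Vegfa, the other abundant ligand, for comparison. Each runs 5′ to 3′ along the gene's own strand, and capitals mark the GC box GGGCGG or its reverse complement CCGCCC. The windows are chr19:6987652-6987901 on the minus strand for Vegfb, chr8:54077282-54077531 on the plus strand for Vegfc and chr17:46032378-46032627 on the minus strand for Vegfa.
Vegfb: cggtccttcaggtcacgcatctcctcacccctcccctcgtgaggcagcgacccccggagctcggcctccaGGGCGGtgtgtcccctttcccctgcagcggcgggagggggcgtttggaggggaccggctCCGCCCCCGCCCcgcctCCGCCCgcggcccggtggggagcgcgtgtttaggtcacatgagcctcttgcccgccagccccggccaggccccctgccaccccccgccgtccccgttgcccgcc
Vegfc: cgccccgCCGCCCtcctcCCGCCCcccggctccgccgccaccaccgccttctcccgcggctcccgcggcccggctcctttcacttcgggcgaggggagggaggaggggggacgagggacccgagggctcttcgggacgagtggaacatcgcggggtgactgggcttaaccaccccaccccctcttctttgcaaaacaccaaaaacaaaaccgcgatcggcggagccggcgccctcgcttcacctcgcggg
Vegfa: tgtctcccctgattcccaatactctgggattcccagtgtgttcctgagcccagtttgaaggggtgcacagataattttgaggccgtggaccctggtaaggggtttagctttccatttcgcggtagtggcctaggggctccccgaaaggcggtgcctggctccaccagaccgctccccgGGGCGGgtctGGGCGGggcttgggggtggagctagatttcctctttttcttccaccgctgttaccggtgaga

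Vegfb held 4 GC boxes and 76.4% G or C, Vegfc held 2 GC boxes and 71.6%, and Vegfa held 2 GC boxes and 59.2%. A GC box, searched on both strands, occurred in the first window of 9 of the 9 genes, against 58.4% of the 10374 tested genes with a RefSeq window of this length. The hypoxia-inducible factor core, ACGTG or GCGTG on either strand, occurred in 6 of the 9 windows, against 55.9%, and was not among the letters printed for Vegfa or Vegfc. The cyclic AMP response element TGACGTCA, which reads the same on both strands, occurred in 1 window, that of Flt1, against 2.68%. TATAAA also occurred in the window of Flt1 alone, against 6.74%, and CCAAT in that of Vegfa alone, against 36.2%. These windows precede the first RefSeq start, which need not be the first GENCODE start. All 250 bases lie within exons of the GENCODE gene for Pgf and Flt4 and within an intron for Nrp1, and 3 bases for Kdr and 32 for Nrp2 lie within exons, while the 3 printed windows and that of Flt1 share no base with the gene. The matches are letters in a window, and the files hold no measure of binding there.

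Sequencing depth was 7361063 to 11497836 counts per library in TAC-BacNav mice, 8275608 to 9813733 counts in TAC-mScarlet mice and 5360869 to 7837342 counts in Sham-NT mice. Levels are given in CPM, the usual unit of a gene's count relative to library size, with library sizes scaled by the trimmed mean of M-values (TMM). The summed level of 12 cardiomyocyte markers was 87040 to 112500 CPM in TAC-BacNav, 70320 to 94630 CPM in TAC-mScarlet and 113400 to 120400 CPM in Sham-NT libraries, and none of them was at 0 in any library. The library of TAC-mScarlet mouse 3 stood apart: its 10 fibroblast markers summed to 8226 CPM, against 3627 to 4532 CPM in the other TAC-mScarlet libraries, and its cardiomyocyte markers to the lowest value of the 12 libraries. Libraries also fell on both sides of a wide gap in the immediate early gene Fos, with 54.9 to 301 CPM in 7 libraries and 1.60 to 7.89 CPM in 5, and both sides held mice of every group. Results of the 9 genes that rest on these libraries are given with and without them. On the low side of the Fos gap, TAC-mScarlet mouse 4 was the only mouse of its group. Mice 1 and 2 of every group were on the high side, and mouse 4 of every group was on the low side.

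Per kilobase of exons, Vegfb and Vegfa were by far the most abundant of the 9 transcripts in every group. Vegfb averaged 167 ± 24.5 CPM per kilobase in TAC-BacNav, 148 ± 14.0 in TAC-mScarlet and 216 ± 24.3 in Sham-NT mice, and Vegfa averaged 143 ± 27.8, 130 ± 39.9 and 151 ± 41.1 in the same groups (SD, n = 4 each). Within each group the ranges of Vegfb and Vegfa overlapped, so their order was not resolved. Kdr came next, at 26.6 ± 5.84, 24.6 ± 2.78 and 22.4 ± 2.75 CPM per kilobase, with no library of Kdr reaching the Vegfa range in any group. Flt1 (12.8 to 15.4 as group means) and Nrp1 (9.87 to 10.2) followed, with overlapping ranges in each group. The low end held Vegfc, Nrp2, Pgf and Flt4. By its mean Vegfc was 6th in both TAC groups, at 6.39 ± 0.810 CPM per kilobase in TAC-BacNav and 7.07 ± 1.88 in TAC-mScarlet mice, with its range above that of Nrp2. In Sham-NT mice it was 8th, at 3.88 ± 0.708 CPM per kilobase, behind Pgf at 6.64 ± 1.65. Pgf was 8th by its mean in both TAC groups, and Flt4 was last in all 3 groups. The ranges of some of these neighbours overlapped: the range of Pgf overlapped those of Nrp2 and Flt4 in both TAC groups and that of Nrp2 in Sham-NT mice, and Vegfc overlapped Nrp1 in TAC-mScarlet and Nrp2 in Sham-NT mice. The ranges of Vegfc and Pgf also overlapped in TAC-BacNav and, by a narrow margin, in Sham-NT mice. Within single libraries some of these pairs kept 1 order. Pgf was above Flt4 in every TAC library, Vegfc was below Nrp1 in every TAC-mScarlet library, and Pgf was above Vegfc in every Sham-NT library. The other overlapping pairs of this low end changed order between libraries of a group and were not resolved.

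**Figure D1:**
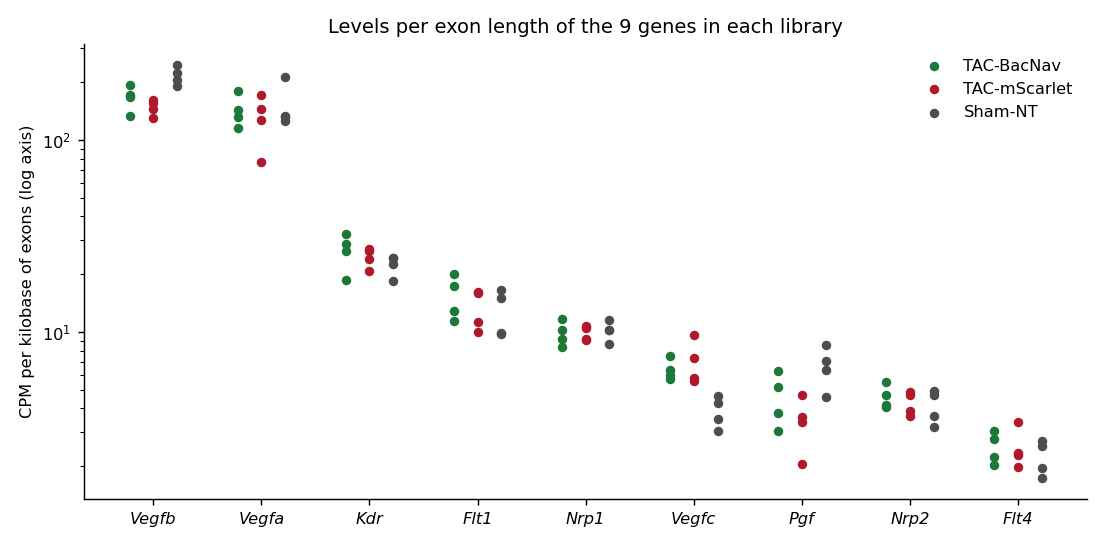
Level of each gene in each of the 12 libraries, in TMM-scaled CPM per kilobase of exons on a log axis, with 1 point per mouse. Vegfb and Vegfa lie above all receptor genes, and the means of Vegfc and Pgf change places between the TAC groups and Sham-NT.

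As shares of the summed per-kilobase level of the 4 ligand genes, Vegfb made up 52.0% in TAC-BacNav, 51.3% in TAC-mScarlet and 57.3% in Sham-NT mice. Vegfa made up 44.6%, 45.0% and 39.9% in the same groups. Vegfc and Pgf were minor by this measure, Vegfc with 1.99%, 2.45% and 1.03% and Pgf with 1.42%, 1.19% and 1.76%. Among the 3 kinase genes, Kdr held 59.8%, 60.8% and 59.9%, Flt1 34.5%, 33.0% and 34.2%, and Flt4 the small remainder.

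The first comparison asked how the constricted heart carrying the control vector differed from the sham heart. In TAC-mScarlet mice, against Sham-NT mice, the lymphatic growth factor gene Vegfc rose, and Vegfb and Pgf, both encoding ligands of Flt1, fell. Vegfa, the 3 kinase genes and both neuropilin genes did not pass the test. This made 3 of the 9 genes called (edgeR's quasi-likelihood test, Benjamini-Hochberg adjusted p below 0.05), beside 5.17% of all genes tested, with 1 higher beside 2.65% and 2 lower beside 2.52%. The same 3 genes were called by DESeq2, beside 9.86% of all genes, and Vegfb and Vegfc by limma-voom, beside 3.36%. At an unadjusted p below 0.05, edgeR listed 3 of the 9 genes, beside 22.2% of all genes. The groups did not overlap for 2 of the 9 genes, Vegfc and Vegfb, beside 13.1% of all genes. The median log2 fold change of the 9 genes was 0.05, against 0.00 over all genes.

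Vegfc was measured at 17.9, 14.2, 23.6 and 13.6 CPM in TAC-mScarlet mice 1 to 4, against 10.5, 11.3, 7.51 and 8.65 CPM in Sham-NT mice 1 to 4. All 4 TAC-mScarlet libraries were above all 4 Sham-NT libraries, and mouse 3 was the highest of them. These levels rested on 117 to 246 counts per TAC-mScarlet library and 53 to 58 counts per Sham-NT library. The log2 fold change was 0.88 ± 0.20 (SE), a 1.84-fold difference, with an adjusted p of 0.0265 by edgeR. The call was lost without Sham-NT mouse 2 (adjusted p = 0.0729 by edgeR), Sham-NT mouse 4 (0.0883) or TAC-mScarlet mouse 3 (0.0880, with a log2 fold change of 0.69). It was also lost among the Fos-high libraries alone (0.0969, log2 fold change 0.77), which hold fewer mice. Among the Fos-low libraries, where TAC-mScarlet mouse 4 is alone in its group, the log2 fold change was 0.73.

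Vegfb, an abundant transcript of heart muscle, was measured at 261, 234, 209 and 249 CPM in TAC-mScarlet mice 1 to 4, against 329, 357, 306 and 396 CPM in Sham-NT mice 1 to 4. Every TAC-mScarlet library was below every Sham-NT library, and mouse 3 was the lowest. Its log2 fold change was -0.54 ± 0.13 (SE), a fold of 0.686, with an adjusted p of 0.0319 by edgeR. Leaving out one mouse ended the call for Sham-NT mouse 1 (adjusted p = 0.0561 by edgeR), mouse 2 (0.0939) and mouse 4 (0.106) and for TAC-mScarlet mouse 2 (0.0569), mouse 3 (0.0989) and mouse 4 (0.0628). The log2 fold change stayed between -0.60 and -0.47 across the 8 fits that left out 1 mouse. Within the Fos-high libraries it was -0.54 (adjusted p = 0.0414 by edgeR). Within the Fos-low libraries, where TAC-mScarlet mouse 4 is alone in its group, it was -0.51.

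Pgf, encoding placental growth factor, was measured at 5.97, 10.4, 9.87 and 13.6 CPM in TAC-mScarlet mice 1 to 4, against 13.3, 24.8, 18.5 and 20.5 CPM in Sham-NT mice 1 to 4. The groups overlapped, since TAC-mScarlet mouse 4 was just above Sham-NT mouse 1, and the other TAC-mScarlet libraries were below all Sham-NT libraries. The log2 fold change was -0.95 ± 0.26 (SE), a fold of 0.517, with an adjusted p of 0.0497 by edgeR. This value lay at the threshold: none of the 8 fits that left out 1 mouse kept the call, with adjusted p-values by edgeR between 0.0521 and 0.152 and log2 fold changes between -1.14 and -0.77. It was also lost under library size scaling (adjusted p = 0.0649 by edgeR), under limma-voom (0.0573), with the mouse number as a block (0.0607), and among the Fos-high libraries alone (0.131). Among the Fos-low libraries, where TAC-mScarlet mouse 4 is alone in its group, the log2 fold change was -0.54.

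**Figure D2:**
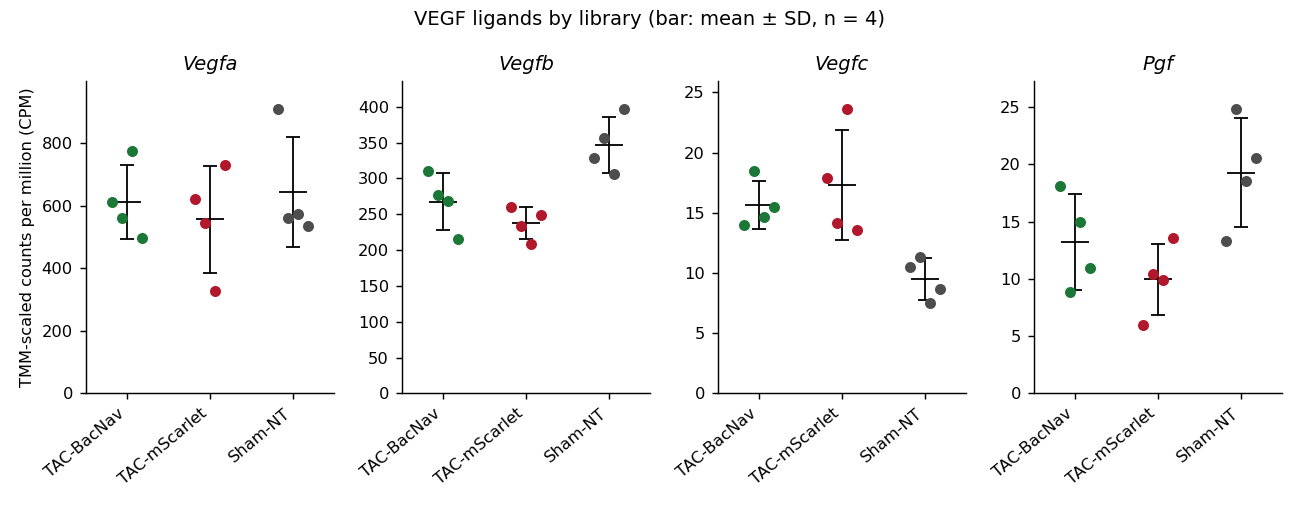
TMM-scaled CPM of the 4 ligand genes, with 1 point per mouse and bars for the mean ± SD of 4 mice per group, TAC-BacNav left, TAC-mScarlet middle and Sham-NT right. Vegfc lies higher in both TAC groups than in Sham-NT, Vegfb lies lower in all 4 TAC-mScarlet mice than in any Sham-NT mouse, and Vegfa overlaps throughout.

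The tissue was measured in bulk, so fewer cells of a type and less RNA per cell cannot be told apart. Of 12 cardiomyocyte markers, 4 fell in TAC-mScarlet against Sham-NT mice, beside 2.52% of all genes called lower, with a median log2 fold change of -0.47 over the list. The called ones were Tnni3 (-0.93 ± 0.18), Atp2a2 (-0.62 ± 0.15), Tnnt2 (-0.48 ± 0.13) and Myh6 (-0.74 ± 0.20 on the log2 scale, SE), genes of contraction and calcium reuptake. Fibroblast markers summed to 3627 to 8226 CPM in TAC-mScarlet and 2435 to 3193 CPM in Sham-NT libraries, with 4 of 10 called higher (Lum, Postn, Col1a1 and Col1a2), beside 2.65% of all genes called higher, and a median of 0.92. Macrophage markers summed to 844 to 1363 CPM in TAC-mScarlet and 591 to 741 CPM in Sham-NT libraries, with 5 of 12 called higher, among them Adgre1 (0.87 ± 0.17) and Lyz2 (0.64 ± 0.16), beside the same 2.65%, and a median of 0.52. Without TAC-mScarlet mouse 3 the calls were 0 of 12 cardiomyocyte, 2 of 10 fibroblast and 0 of 12 macrophage markers, with medians of -0.41, 0.65 and 0.35. Each marker call named here was lost without Sham-NT mouse 2 or Sham-NT mouse 4, and all but those of Lum and Col1a2 without TAC-mScarlet mouse 3, with adjusted p-values by edgeR of at most 0.124 in any of the 8 fits that left out 1 mouse. Across those 8 fits, the call held in 6 for Lum, in 5 for Tnni3 and Adgre1 and in 3 for Atp2a2, Postn, Col1a2 and Lyz2. It held in 2 for Col1a1, in 1 for Tnnt2 and in 0 for Myh6. The sums of these 3 lists did not overlap between TAC-mScarlet and Sham-NT libraries, the same groups between which Vegfc, Vegfb and Pgf were called. They did not overlap between TAC-BacNav and Sham-NT libraries either, where none of these genes was called. The TAC-BacNav sums were 87040 to 112500 CPM for cardiomyocyte, 3333 to 3938 CPM for fibroblast and 826 to 954 CPM for macrophage markers. The part of these lists in the results of the 3 genes was not tested. Among the TAC-mScarlet libraries, mouse 3 was at the end of the range for the 3 lists, Vegfc and Vegfb, but not for Pgf, which was lowest in mouse 1. Without TAC-mScarlet mouse 3, the highest in fibroblast and macrophage markers, the log2 fold changes were 0.69 for Vegfc, -0.49 for Vegfb and -0.95 for Pgf.

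Vegfa was measured at 624, 547, 328 and 732 CPM in TAC-mScarlet mice 1 to 4, against 909, 563, 573 and 537 CPM in Sham-NT mice 1 to 4. The groups overlapped widely, with TAC-mScarlet mouse 3 the lowest and Sham-NT mouse 1 the highest of all 12 libraries. The log2 fold change was -0.21 ± 0.23 (SE), and its 95% interval ran from -0.66 to 0.24 (adjusted p = 0.645 by edgeR). Without Sham-NT mouse 1 the value was -0.0016. Among the Fos-low libraries, where TAC-mScarlet mouse 4 is alone in its group, it was 0.38.

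The receptors showed no difference past the threshold in TAC-mScarlet against Sham-NT mice. Kdr, the main signalling receptor of VEGF-A, was measured at 239, 244, 189 and 217 CPM in TAC-mScarlet mice 1 to 4, against 220, 205, 218 and 166 CPM in Sham-NT mice 1 to 4. Its log2 fold change was 0.13 with a 95% interval of -0.18 to 0.44. Flt1, which binds VEGF-A, VEGF-B and placental growth factor, was measured at 152, 217, 135 and 215 CPM in TAC-mScarlet mice 1 to 4, against 133, 134, 223 and 202 CPM in Sham-NT mice 1 to 4. The 2 groups spanned nearly the same range, with a log2 fold change of 0.06 and an interval of -0.38 to 0.49.

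Flt4, the lymphatic receptor of VEGF-C, ran from 16.2 to 28.0 CPM in TAC-mScarlet and from 14.3 to 22.4 CPM in Sham-NT mice, with a log2 fold change of 0.16 (95% interval -0.23 to 0.55). Nrp1, a co-receptor for VEGF-A, ran from 89.1 to 105 CPM in TAC-mScarlet and from 84.4 to 113 CPM in Sham-NT mice. Nrp1 had the narrowest interval of the 9 genes, -0.28 to 0.20 around a log2 fold change of -0.04. Nrp2, a co-receptor for VEGF-C on lymphatic endothelium, ran from 43.2 to 57.5 CPM in TAC-mScarlet and from 37.9 to 58.6 CPM in Sham-NT mice, with a log2 fold change of 0.05 (95% interval -0.26 to 0.35). The 18 endothelial markers summed to 3070 to 3860 CPM in TAC-mScarlet and 3117 to 3794 CPM in Sham-NT libraries, with a median log2 fold change of 0.08. Of these 18 markers 1 was called, Cd34 (0.57 ± 0.15), beside 5.17% of all genes called in this comparison. The call of Cd34 held in 3 of the 8 fits that left out 1 mouse, and was lost without Sham-NT mouse 1, 2 or 4 or TAC-mScarlet mouse 3 or 4, with an adjusted p of up to 0.126 by edgeR.

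**Figure D3:**
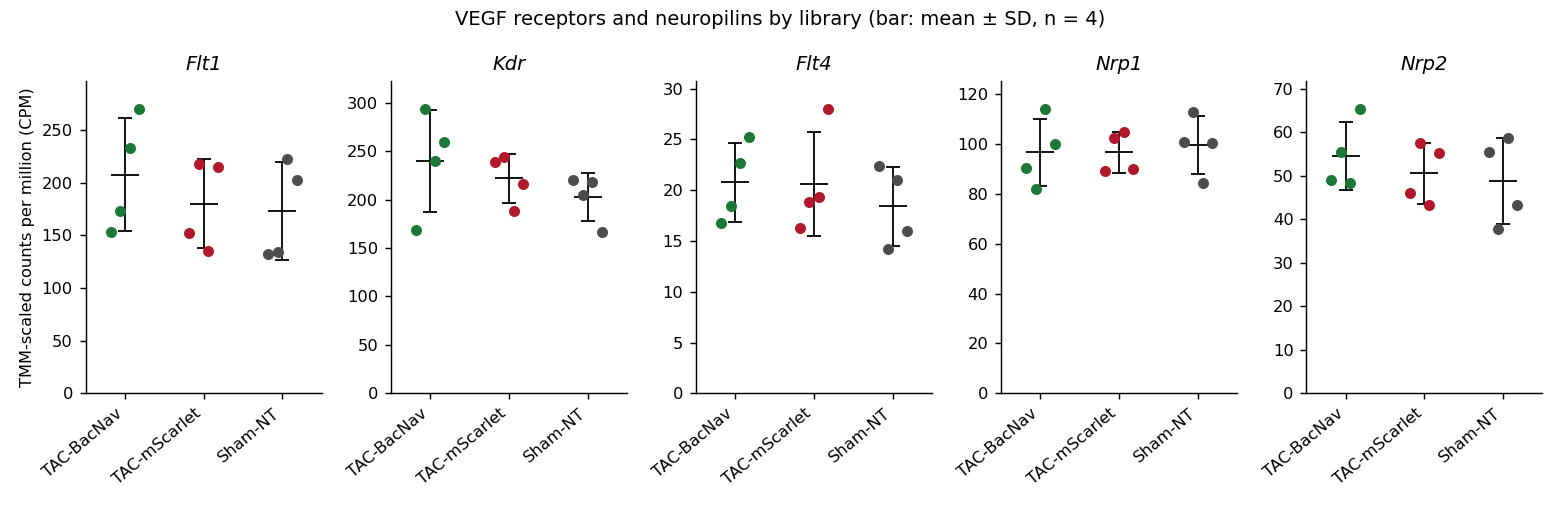
TMM-scaled CPM of the 3 kinase genes and both neuropilin genes, with 1 point per mouse and bars for the mean ± SD of 4 mice per group, TAC-BacNav left, TAC-mScarlet middle and Sham-NT right. The 3 groups overlap for every gene.

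The second comparison asked what the BacNav cargo changed in constricted hearts, and it shares the TAC-mScarlet libraries with the first. Against TAC-mScarlet mice, none of the 9 genes was called in TAC-BacNav mice, beside 0% of all genes by edgeR. At an unadjusted p below 0.05, edgeR listed 0 of the 9 genes, beside 3.36% of all genes. DESeq2 called 5 of the 13910 genes (0.0359%) and limma-voom 0, none of them among the 9.

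Pgf was measured at 18.1, 8.81, 14.9 and 10.9 CPM in TAC-BacNav mice 1 to 4, against the 5.97 to 13.6 CPM of TAC-mScarlet mice. Its log2 fold change was 0.40 ± 0.26 (SE), with a 95% interval of -0.11 to 0.92, and was 0.21 without TAC-BacNav mouse 1 and 0.22 without TAC-mScarlet mouse 1. Vegfb was measured at 310, 277, 268 and 215 CPM in TAC-BacNav mice 1 to 4, against 209 to 261 CPM in TAC-mScarlet mice. TAC-BacNav mice 1 to 3 were above every TAC-mScarlet library, and mouse 4 was near the bottom of their range (log2 fold change 0.17 ± 0.13, 95% interval -0.09 to 0.43). Leaving out 1 mouse gave Vegfb values between 0.09, without TAC-BacNav mouse 1, and 0.26, without TAC-BacNav mouse 4. Vegfc was measured at 14.0, 18.5, 14.7 and 15.5 CPM in TAC-BacNav mice 1 to 4, against 13.6 to 23.6 CPM in TAC-mScarlet mice (-0.15 ± 0.19, interval -0.52 to 0.22). Without TAC-mScarlet mouse 3 the Vegfc value was 0.04. Vegfa was measured at 614, 563, 775 and 496 CPM in TAC-BacNav mice 1 to 4, against 328 to 732 CPM in TAC-mScarlet mice (0.13 ± 0.23, interval -0.31 to 0.58). For these 4 ligands the adjusted p was 0.9995 by edgeR.

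The receptors overlapped as well. Kdr was measured at 168, 293, 240 and 260 CPM in TAC-BacNav mice 1 to 4, against 189 to 244 CPM in TAC-mScarlet mice, with a log2 fold change of 0.11 (95% interval -0.19 to 0.42). Flt1 was measured at 153, 173, 233 and 269 CPM in TAC-BacNav mice 1 to 4, against 135 to 217 CPM in TAC-mScarlet mice (0.20, interval -0.23 to 0.64). Flt4 spanned 16.7 to 25.2 CPM in TAC-BacNav and 16.2 to 28.0 CPM in TAC-mScarlet mice (0.02, interval -0.36 to 0.40). Nrp1 spanned 82.1 to 114 CPM in TAC-BacNav and 89.1 to 105 CPM in TAC-mScarlet mice (0.00, interval -0.24 to 0.24), and Nrp2 spanned 48.4 to 65.3 CPM in TAC-BacNav and 43.2 to 57.5 CPM in TAC-mScarlet mice (0.11, interval -0.19 to 0.41). The groups overlapped for all 9 genes, while 1.7% of all genes had groups that did not overlap.

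The third comparison set constricted hearts carrying BacNav against sham hearts. It shares the Sham-NT libraries with the first comparison and the TAC-BacNav libraries with the second, so its values are given beside theirs and not as independent results. None of the 9 genes was called, beside 0.0144% of all genes by edgeR (2 of 13910), and DESeq2 called 38 genes (0.273%) and limma-voom 2, none among the 9. At an unadjusted p below 0.05, edgeR listed 2 of the 9 genes, Vegfc and Vegfb, beside 11.1% of all genes. The groups did not overlap for 1 of the 9 genes, Vegfc, beside 5.45%.

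Vegfc averaged 15.6 ± 1.98 CPM in TAC-BacNav and 9.50 ± 1.74 CPM in Sham-NT mice (SD, n = 4 each), and the log2 fold change of 0.73 ± 0.20 (SE) did not pass the adjustment (adjusted p = 0.368 by edgeR), although all 4 TAC-BacNav libraries were above all 4 Sham-NT libraries. Vegfb averaged 268 ± 39.4 CPM in TAC-BacNav and 347 ± 39.0 CPM in Sham-NT mice (-0.37 ± 0.13, adjusted p = 0.368 by edgeR), with TAC-BacNav mouse 1 inside the Sham-NT range. Pgf averaged 13.2 ± 4.16 CPM in TAC-BacNav and 19.3 ± 4.78 CPM in Sham-NT mice (-0.55 ± 0.26, adjusted p = 0.454 by edgeR). The signs of these 3 values were those of TAC-mScarlet against Sham-NT, where the log2 fold changes were 0.88, -0.54 and -0.95. A call in one comparison and none in the other does not show that the TAC groups differed, and their direct comparison called none of the 3. Vegfa (-0.08), Flt1 (0.26), Kdr (0.25), Flt4 (0.18), Nrp1 (-0.04) and Nrp2 (0.16) were not called either, with 95% intervals that all included 0.

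**Figure D4:**
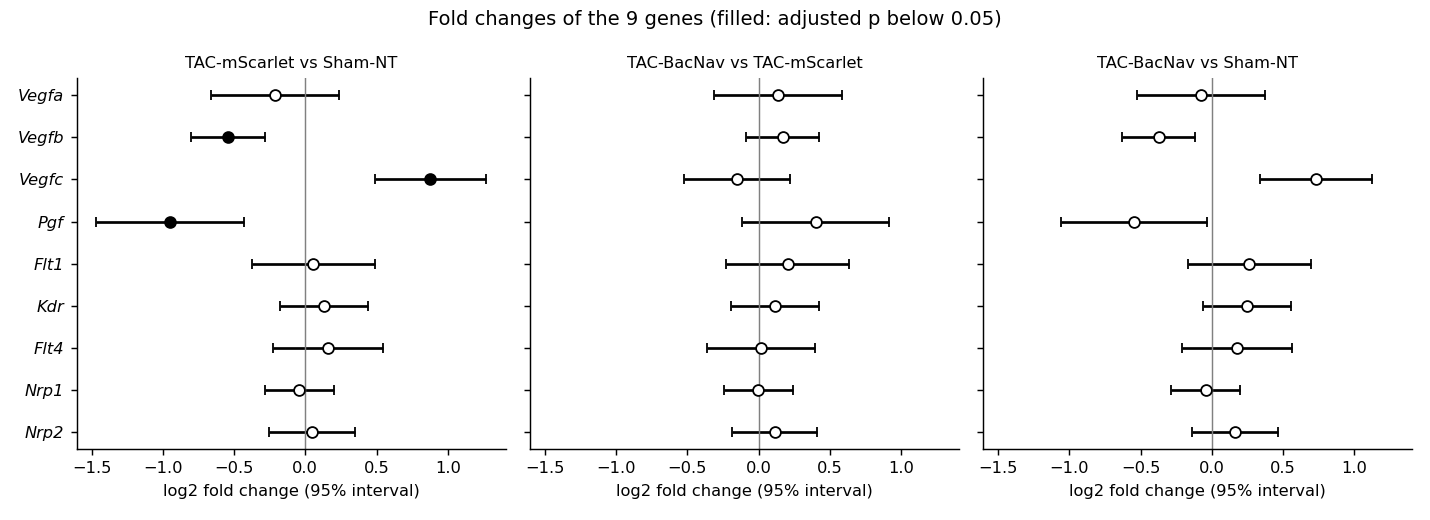
Log2 fold change of the 9 genes in each comparison, with 95% intervals and filled points where the adjusted p by edgeR was below 0.05. Filled points are seen only for Vegfb, Vegfc and Pgf in TAC-mScarlet against Sham-NT, at -0.54, 0.88 and -0.95.

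A pair of log2 ratios of genes within a library, which need no scaling between libraries, were compared by exact two-sided permutation tests over 70 arrangements, whose smallest possible p is 0.0286. The ratio of Vegfa to Vegfb counts had a geometric mean of 2.27 in TAC-BacNav, 2.25 in TAC-mScarlet and 1.83 in Sham-NT mice. Single libraries spanned 1.98 to 2.89 in TAC-BacNav, 1.57 to 2.94 in TAC-mScarlet and 1.36 to 2.76 in Sham-NT mice, so the groups overlapped. The exact p was 0.343 for TAC-mScarlet against Sham-NT, 0.971 for TAC-BacNav against TAC-mScarlet and 0.229 for TAC-BacNav against Sham-NT. The log2 difference of 0.30 in TAC-mScarlet against Sham-NT was 0.50 without Sham-NT mouse 1 (exact p = 0.114) and 0.16 without Sham-NT mouse 4. In TAC-BacNav against Sham-NT the log2 difference of 0.32 was 0.52 without Sham-NT mouse 1, with the smallest exact p that 4 against 3 mice allow (0.0286, unadjusted), and 0.17 without Sham-NT mouse 4. Sham-NT mouse 1 held the highest Vegfa level of the 12 libraries. The ratio of Flt1 to Kdr counts had a geometric mean of 0.859 in TAC-BacNav, 0.798 in TAC-mScarlet and 0.836 in Sham-NT mice. Its exact p-values were 0.800 for TAC-mScarlet against Sham-NT, 0.714 for TAC-BacNav against TAC-mScarlet and 0.971 for TAC-BacNav against Sham-NT. Adjusted over the 6 tests, every p was 0.971.

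Other genes of the VEGF pathway were taken from 8 lists, whose calls in TAC-mScarlet against Sham-NT are read beside the 5.17% of all genes called there. Among 12 genes that respond to VEGF or mark endothelial tip cells, 2 rose and 1 fell, with a median log2 fold change of 0.50. Esm1, an endothelial proteoglycan gene induced by VEGF-A, was measured at 5.85, 6.80, 11.2 and 6.26 CPM in TAC-mScarlet mice 1 to 4, against 1.39, 4.10, 1.29 and 2.24 CPM in Sham-NT mice 1 to 4. Every TAC-mScarlet library was above every Sham-NT library (log2 fold change 1.77 ± 0.41, adjusted p = 0.0270 by edgeR), as was so in either direction for 13.1% of all genes. The Sham-NT levels of Esm1 were low and thus rested on few counts. Rcan1, an inhibitor of calcineurin that is induced by calcineurin itself in both endothelium and heart muscle, averaged 346 ± 158 CPM in TAC-mScarlet and 112 ± 33.6 CPM in Sham-NT mice (1.63 ± 0.33, adjusted p = 0.0245 by edgeR). Apln, the ligand gene of the apelin receptor and a tip cell gene, averaged 10.0 ± 3.57 CPM in TAC-mScarlet and 19.5 ± 5.72 CPM in Sham-NT mice (-0.97 ± 0.27, adjusted p = 0.0468 by edgeR). Genes of this list therefore moved in both directions, and the list holds genes that cells other than endothelium also express.

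Among 27 genes of VEGF signal transduction, 1 fell, Mapk14, which encodes the stress kinase p38 alpha (-0.56 ± 0.15), and the median was 0.02. Of 14 genes of the Notch pathway in vessels, 1 rose, the Notch target gene Heyl (0.75 ± 0.17), with 43.5 to 51.3 CPM in TAC-mScarlet mice 1 to 3 and 37.5 CPM in mouse 4, against 22.6 to 34.9 CPM in Sham-NT mice. Of 12 genes of VEGF maturation and matrix binding, 1 rose, Adamts2, a procollagen protease (1.08 ± 0.29), and TAC-mScarlet mouse 3 was far above the others there, at 69.2 CPM. Without that mouse the log2 fold change of Adamts2 was 0.68 (adjusted p = 0.118 by edgeR). Of 8 endogenous inhibitors of angiogenesis, 1 rose, Spry1, a feedback inhibitor of receptor tyrosine kinase signalling (0.74 ± 0.20), and the median was 0.61. None of 20 hypoxia response genes was called (median 0.02), nor any of 5 angiopoietin and Tie genes (0.015), nor any of 11 secreted semaphorin and plexin genes (0.13). The median over all genes was 0.00. Leaving out Sham-NT mouse 2, Sham-NT mouse 4 or TAC-mScarlet mouse 3 ended each of the calls named in these lists. Of the 8 fits that left out 1 mouse, the call held in 5 for Rcan1 and Heyl, in 4 for Esm1, in 3 for Mapk14, in 2 for Adamts2 and Spry1 and in 1 for Apln. The largest adjusted p-values by edgeR in these fits were 0.158 for Spry1, 0.139 for Adamts2, 0.131 for Apln, 0.126 for Mapk14, 0.0892 for Esm1, 0.0882 for Heyl and 0.0802 for Rcan1. In both comparisons of TAC-BacNav mice, 0 genes of any of the 8 lists were called by edgeR. Of all genes, 0% were called there against TAC-mScarlet mice and 0.0144% against Sham-NT mice, so hardly any call was to be had.

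For these named pathway genes, the TAC-BacNav means lay between the other groups' means. Esm1 averaged 4.35 ± 1.95 CPM, Rcan1 179 ± 37.1 CPM, Apln 15.8 ± 3.66 CPM and Heyl 40.3 ± 7.57 CPM in TAC-BacNav mice (SD, n = 4). Against TAC-mScarlet mice the log2 fold changes were -0.78 ± 0.36 for Esm1, -0.96 ± 0.32 for Rcan1, 0.67 ± 0.26 for Apln and -0.16 ± 0.16 for Heyl (SE), all with an adjusted p of 0.9995 by edgeR. These genes were chosen for their TAC-mScarlet values, which enter this comparison too.

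The 5 lymphatic endothelial markers in the tables (Prox1, Lyve1, Pdpn, Reln and Mmrn1), which bear on the tissue that VEGF-C acts on, summed to 114 to 160 CPM in TAC-BacNav, 116 to 155 CPM in TAC-mScarlet and 89.8 to 118 CPM in Sham-NT libraries. None was called in TAC-mScarlet against Sham-NT, beside 5.17% of all genes, or in the TAC-BacNav comparisons, beside 0% against TAC-mScarlet and 0.0144% against Sham-NT. Their median log2 fold change was 0.46 in TAC-mScarlet against Sham-NT (0.27 without TAC-mScarlet mouse 3) and 0.38 in TAC-BacNav against Sham-NT. Some of them, such as Lyve1 and Pdpn, are also expressed by macrophages or fibroblasts. None of the 9 smooth muscle and pericyte markers tested was called (median 0.05 in TAC-mScarlet against Sham-NT, and -0.02 without TAC-mScarlet mouse 3), and none of 7 mesothelial markers was (-0.32). None of 9 immediate early genes was called either (1.25), with summed levels of 354 to 2856 CPM in TAC-mScarlet and 209 to 1434 CPM in Sham-NT libraries. Mesothelial markers summed to 50.0 to 115 CPM in the 7 Fos-high libraries and 13.7 to 23.7 CPM in the 5 Fos-low ones.

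The genes whose levels across the 12 libraries were most like those of each ligand are given as a description, with no test. The measure was Pearson's r of log2(CPM + 1) over 12581 tested genes with a mean of at least 1 CPM. Genes named only by a Gm number, a Rik symbol or an AC or AL clone were left out of this search. The libraries share group, depth and cell makeup, so high values of r are found by searching many genes. Vegfb was most like Fitm1 (r = 0.99), Ppil1 and Macrod1 (both 0.98), and most opposite to Csgalnact2 (-0.97), Gpm6b (-0.97) and Erbin (-0.96). Vegfc was most like Add3 (0.96), Zfp36l1 (0.95) and the macrophage gene Lyz2 (0.95), and most opposite to Wipi2 (-0.94), Plin4 (-0.93) and Gpsm1 (-0.92). Among the genes most like Pgf were Lamb2 (0.90) and Isyna1 (0.88), and it was most opposite to Sap30bp (-0.91), Dcaf5 (-0.91) and Idi1 (-0.90). For Vegfa the closest were Cracdl (0.92), Usp10 (0.89) and Exd2 (0.87), and the most opposite Rcn2 (-0.91), Tmem168 (-0.89) and Ogn (-0.87). For Kdr, the receptor gene included in this search, the closest were Frk (0.84), Klhl34 (0.83) and Fpgt (0.81), and the most opposite Rab2a (-0.80), Camk1 and Wdr46 (both -0.79).

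**Figure D5:**
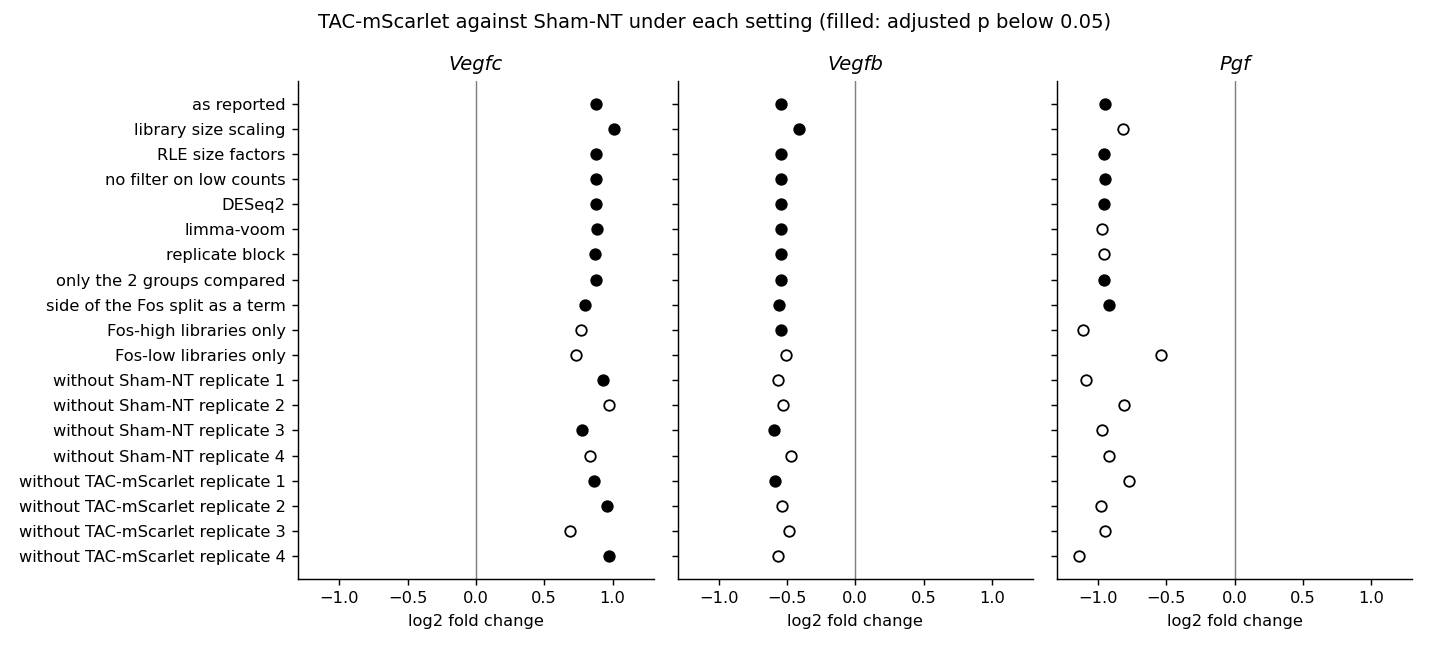
Log2 fold change of Vegfc, Vegfb and Pgf in TAC-mScarlet against Sham-NT under each of 18 alternatives and as reported, filled where the adjusted p was below 0.05. The sign of each gene is the same in every row, while the filled points are fewest for Pgf (5 of the 18 alternatives), with 11 for Vegfb and 13 for Vegfc.

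Across the 18 alternatives, the log2 fold change in TAC-mScarlet against Sham-NT ran from 0.69 to 1.01 for Vegfc, from -0.60 to -0.42 for Vegfb and from -1.14 to -0.54 for Pgf. The number of alternatives that called each gene was 13, 11 and 5. In the other 2 comparisons no alternative called any of the 9 genes.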

How the data were processed

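Per the labels' protocols, total RNA of snap-frozen ventricles was isolated with TRIzol and a column kit and sequenced as read pairs. The values used are whole-number counts per gene, as deposited by the authors, with 1 table per mouse. Per the submitters' processing notes, HISAT2 and featureCounts were used, without versions, and GRCh38 is the build named, although the identifiers are of mouse genes: 14946 of 14957 matched GENCODE vM21 without their version. The smallest total of a gene over the 12 libraries was 30 counts, so a filter had been applied before deposit. The sources used here do not give the strand setting or the treatment of multiply mapped reads, so reads from opposite strands cannot be told apart.

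Counts were tested in edgeR 4.0.16 (R 4.3.3) with filterByExpr, which removed 1047 genes, TMM scaling, 1 robust quasi-likelihood model over all 12 libraries (common biological coefficient of variation 0.203) and Benjamini-Hochberg adjustment over 13910 genes, called below 0.05. The SE was derived from each log2 fold change and its F statistic. Intervals called 95% are the log2 fold change ± 1.96 SE. This normal approximation is narrower than an interval from the quasi-likelihood test itself, so an interval that leaves out 0 is not a test. The fit was tested on simulated data. Alternatives were other scalings, no filter, DESeq2 1.42.0, limma-voom 3.58.1, a replicate block, other sample sets and leaving out each mouse. Libraries of a group differed by more than sampling noise in every pair (chi-square per degree of freedom at least 5.35). Each mouse is a separate animal, and depth was 5360869 to 11497836 counts per library. Exon lengths are of all exons of a gene merged. Promoter windows, the bases before the first RefSeq start, were matched for 9 of the 9 genes.

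The genes, the lists and the tests were chosen with earlier results of these data known. The text names the 9 genes, at most 4 called genes per list and direction with the smallest p, and, for Vegfa, Kdr and each called gene, the 3 genes most alike and the 3 most opposite across libraries. A gene that the likeness rule names for Pgf is not reported here.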

Additional observations from a re-analysis of the deposited data

Results flagged for a closer look

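One value stood apart from the other libraries of its group. Vegfa was measured at 909 CPM in Sham-NT mouse 1, while the other Sham-NT mice lay between 537 and 573 CPM, so the gap to the nearest of them was 0.904 of the group's whole range, above Dixon's critical value for 4 samples. Outliers were looked for in 33 groups of 4 values, and chance flags about 5% of such groups. Without this mouse the log2 fold change of Vegfa was -0.0016 in TAC-mScarlet against Sham-NT and 0.13 in TAC-BacNav against Sham-NT, and it was not called with or without it. Its cause was not tested.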

How the results depend on the processing

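Values below are in the order of the 3 comparisons, TAC-mScarlet against Sham-NT, TAC-BacNav against TAC-mScarlet and TAC-BacNav against Sham-NT. The cause of each change was not tested. Of the 9 genes, 3 were called in the first comparison as reported, 1 among the Fos-high libraries and 0 to 2 when 1 mouse was left out. Calls among the Fos-low libraries are not given for the first and second comparisons, where TAC-mScarlet mouse 4 is alone in its group. Genes called in all, 719 as reported, were 1371 by DESeq2, 467 by limma-voom, 1459 with the side of the Fos gap as a term, 96 among Fos-low libraries and 14 to 1055 when 1 mouse was left out (14 without Sham-NT mouse 2, 20 without Sham-NT mouse 4). In the second comparison, 0 as reported became 5 by DESeq2, 6 with the replicate block, 1 with only the 2 groups in the fit and 2 among Fos-high libraries. In the third, 2 as reported became 38 by DESeq2, 12 with the block, 1 with only the 2 groups, 8 with the Fos term, 4 among Fos-high and 34 among Fos-low libraries, and 0 to 15 when 1 mouse was left out.

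Over all genes tested, mouse numbers did not pair most libraries: correlations of same-numbered libraries ran from -0.292 to 0.379, and 3 of 12 libraries correlated best with their own number. Mouse numbers did go with the Fos gap, however. Mice 1 and 2 were Fos-high and mouse 4 was Fos-low in every group, and mouse 3 was Fos-low except in TAC-mScarlet. The cause of this was not tested. With the replicate block 889 genes were called in the first comparison, and of the 9 genes 2, 0 and 0.

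Signs that turned all belong to values that were not called. Among the Fos-low libraries TAC-mScarlet mouse 4 is alone in its group, so Fos-low values in the first and second comparisons rest on that mouse. In the first comparison the log2 fold change became 0.38 for Vegfa among Fos-low libraries, -0.0078 for Flt4 among Fos-high libraries and 0.092 for Nrp1 under library size scaling, which shifted the median of all genes by 0.13 (0.11 in the third comparison). In the second, Fos-low libraries gave -0.21 for Vegfa, -0.048 for Vegfb, 0.15 for Vegfc, -0.083 for Pgf, -0.22 for Flt4 and 0.24 for Nrp1, and Fos-high libraries -0.046 for Flt1 and -0.048 for Flt4. Flt4 was -0.0065 under library size scaling and -0.070 with the Fos term. In the third, library size scaling gave 0.020 for Vegfa and 0.061 for Nrp1, Fos-low libraries 0.17 for Vegfa and 0.19 for Nrp1, and Fos-high libraries -0.056 for Flt4. Leaving out 1 mouse gave ranges in the first comparison of -0.051 to 0.20 for Flt1, -0.025 to 0.26 for Flt4, -0.11 to 0.022 for Nrp1 and -0.056 to 0.15 for Nrp2. In the second they were -0.051 to 0.29 for Vegfa, -0.25 to 0.042 for Vegfc, -0.093 to 0.20 for Flt4 and -0.078 to 0.067 for Nrp1, and in the third -0.20 to 0.13 for Vegfa and -0.12 to 0.027 for Nrp1. For the log2 ratio of Vegfa to Vegfb the range was -0.16 to 0.14 in the second comparison. For Flt1 to Kdr the ranges were -0.22 to 0.11, -0.0017 to 0.29 and -0.12 to 0.22. Depth limits Vegfc and Pgf most, with as few as 53 and 50 counts in a library.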

Other observations

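Vegfd, the gene of a further ligand of Flt4, was also in the tables, and is given here although it was chosen after its values were seen. It was measured at 6.86, 9.41, 8.94 and 5.10 CPM in TAC-BacNav mice 1 to 4, at 9.92, 10.3, 9.39 and 4.29 CPM in TAC-mScarlet mice 1 to 4 and at 5.75, 7.61, 4.53 and 4.97 CPM in Sham-NT mice 1 to 4. The TAC-mScarlet libraries of mice 1 to 3 were above every Sham-NT library, whereas mouse 4 was below all of them. The log2 fold change was 0.58 ± 0.29 (SE) in TAC-mScarlet against Sham-NT, with a 95% interval of 0.01 to 1.15, and was not called (adjusted p = 0.254 by edgeR). Vegfd was not called in TAC-BacNav against TAC-mScarlet (-0.17 ± 0.28) or in TAC-BacNav against Sham-NT (0.41 ± 0.29) either.

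Flt1 levels followed the Fos gap more closely than the groups in these libraries. The 5 Fos-low libraries held 202 to 269 CPM of Flt1, and the 7 Fos-high libraries held 133 to 217 CPM. These ranges overlapped, since Fos-high TAC-mScarlet mouse 2 was above Fos-low Sham-NT mouse 4. How many of all genes follow the gap was not counted, and the gap also went with the mouse numbers. Fos levels were not used to choose Flt1, but this pattern was noticed after the values were seen, and was not tested.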
